A study of Rattus norvegicus with 9 samples.

Results

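The 84 loci described here are those of the deposited gene table that lie wholly within 38 to 40 Mb of rat chromosome 12 in the authors' assembly (rn6), the interval that surrounds the long non-coding RNA gene Lrap. They were chosen by position and by a minimum of 10 expected counts in at least 3 of 9 libraries, out of 114601 loci in the table. A further 107 loci of the same interval stayed under that minimum. At the edge of the minimum, the third highest count was 10 for B3gnt4, 10.6 for MSTRG.24449 and 11 for Lrrc43 inside it, and 9 for MSTRG.24506 and for further fragments of Vps33a and Kntc1 outside it.

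RNA was taken from whole brain of 9 male rats that had no alcohol, of which 3 were wild type, 3 heterozygous and 3 homozygous for the allele Crl:WI-Lrapem1Geh. In that allele CRISPR/Cas9 removed 618 bp of Lrap. The wild types were Wistar rats from Charles River. Shared litters with the mutants are not stated in the sources used here, and in a comparison with wild type the genotype cannot be told apart from the line. All rats were untreated, and both mutant genotypes were compared with the same 3 wild types.

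A long non-coding RNA can act on genes beside it, through its transcript, through its own transcription or through DNA elements within it, and a deletion inside such a gene is therefore read first in its neighbours. The neighbours of Lrap include Orai1, the pore of the calcium channel that opens when internal stores run empty, the histone demethylase Kdm2b, which brings a Polycomb complex to unmethylated CpG islands, and Setd1b, a methyltransferase for lysine 4 of histone H3. Farther along lie P2rx4 and P2rx7, ATP-gated cation channels, Camkk2, a kinase activated by calcium and calmodulin, and Atp2a2, the calcium pump of the endoplasmic reticulum.

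Promoter sequences of a few members are shown because the interval is dense in gene starts, and because the start of Kdm2b is set beside that of a locus at Lrap further on. They are the 250 bases before the annotated start from RefSeq (build GRCr8, not the build of the counts), written 5′ to 3′ on the gene's strand, with CG dinucleotides in capitals. Orai1 is the nearest gene with a symbol at lower coordinates, Kdm2b is shown for the place of its start, P2rx4 has the antisense loci described further on, and Hcar1 is shown as a CG-poor contrast. The Orai1 stretch is chr12:39209031-39209280 (minus strand), that of Kdm2b chr12:39235228-39235477 (plus), that of P2rx4 chr12:39523090-39523339 (minus) and that of Hcar1 chr12:38371343-38371592 (plus).
Orai1: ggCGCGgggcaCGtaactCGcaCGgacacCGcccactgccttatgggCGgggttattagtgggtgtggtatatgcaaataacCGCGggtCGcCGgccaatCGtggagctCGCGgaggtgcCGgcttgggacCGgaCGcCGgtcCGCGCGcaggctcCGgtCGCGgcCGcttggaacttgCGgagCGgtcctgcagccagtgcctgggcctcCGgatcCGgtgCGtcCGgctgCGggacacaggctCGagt
Kdm2b: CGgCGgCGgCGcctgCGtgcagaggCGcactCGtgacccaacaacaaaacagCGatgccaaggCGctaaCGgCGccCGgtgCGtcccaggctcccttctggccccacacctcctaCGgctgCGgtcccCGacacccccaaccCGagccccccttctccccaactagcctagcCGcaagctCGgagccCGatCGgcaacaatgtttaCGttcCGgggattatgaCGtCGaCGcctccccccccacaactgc
P2rx4: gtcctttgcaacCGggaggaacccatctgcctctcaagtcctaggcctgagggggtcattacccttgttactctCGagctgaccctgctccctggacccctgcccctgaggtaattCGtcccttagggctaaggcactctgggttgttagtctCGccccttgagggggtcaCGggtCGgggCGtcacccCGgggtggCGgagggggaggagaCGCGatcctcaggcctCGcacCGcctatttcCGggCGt
Hcar1: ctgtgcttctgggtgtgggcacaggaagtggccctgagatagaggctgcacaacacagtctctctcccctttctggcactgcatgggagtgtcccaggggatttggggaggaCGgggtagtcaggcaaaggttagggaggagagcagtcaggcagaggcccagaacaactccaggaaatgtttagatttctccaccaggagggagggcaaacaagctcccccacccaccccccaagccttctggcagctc

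These stretches held 33 CG dinucleotides for Orai1, 26 for Kdm2b, 15 for P2rx4 and 1 for Hcar1, the gene of a lactate receptor. Of the 44 gene symbols among the members, 35 had a promoter entry, and 28 of these (80%) held 10 or more CG dinucleotides, against 38.4% of 27457 rat promoters of the same length. The letters TATAAA, searched on both strands, stood in 1 member promoter (2.86%) and in 13.1% of all promoters. Members were chosen for a minimum count in brain, and of the 10406 rat promoters whose gene symbol had a tested locus 73.5% held 10 or more CG dinucleotides and 6.43% the letters TATAAA. The share in the members was thus near that of other genes measured in these brains.

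Of the 84 loci, 49 carried one of the 44 gene symbols, and 35 did not. Those without a symbol were 11 antisense to a gene, 11 intergenic, 10 within an intron and 3 run-on transcripts just past a gene. The plus strand held 32 and the minus strand 52. On the map, 47 lay at lower coordinates than Lrap, 35 at higher ones, and Lrap itself and MSTRG.24459 overlapped each other. Setd1b, Denr and Ift81 were each assembled as 2 loci, Lrrc43 and B3gnt4 as 2 of which 1 reached the minimum, Vps33a as 3 and Kntc1 as 7 of which 2 each reached it, so the level of any such gene is split between its fragments. A single isoform was assembled for 59 loci, and the most, 9, for Ccdc62, a coiled-coil protein known from the testis.

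Levels spanned 3 orders of magnitude on a per-length scale, the authors' TPM. Atp2a2 was highest with a mean of 52.3 TPM over the 9 rats, followed by Arpc3, a subunit of the actin-nucleating Arp2/3 complex, at 28.3 TPM. Ppp1cc, a catalytic subunit of protein phosphatase 1, stood at 20.3 TPM, Anapc5, a subunit of the anaphase-promoting complex, at 19.3 TPM, and Vps29, a retromer subunit, at 11.9 TPM. All 5 of these loci above 10 TPM lay at higher coordinates than Lrap, as the map of levels by distance shows. Lrap itself was at 0.218 TPM, and its annotated neighbours Orai1 and Morn3 were at 0.444 and 0.189 TPM. Loci without a symbol had a median of 0.128 TPM, against 1.24 TPM for those with one.

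**Figure D1:**
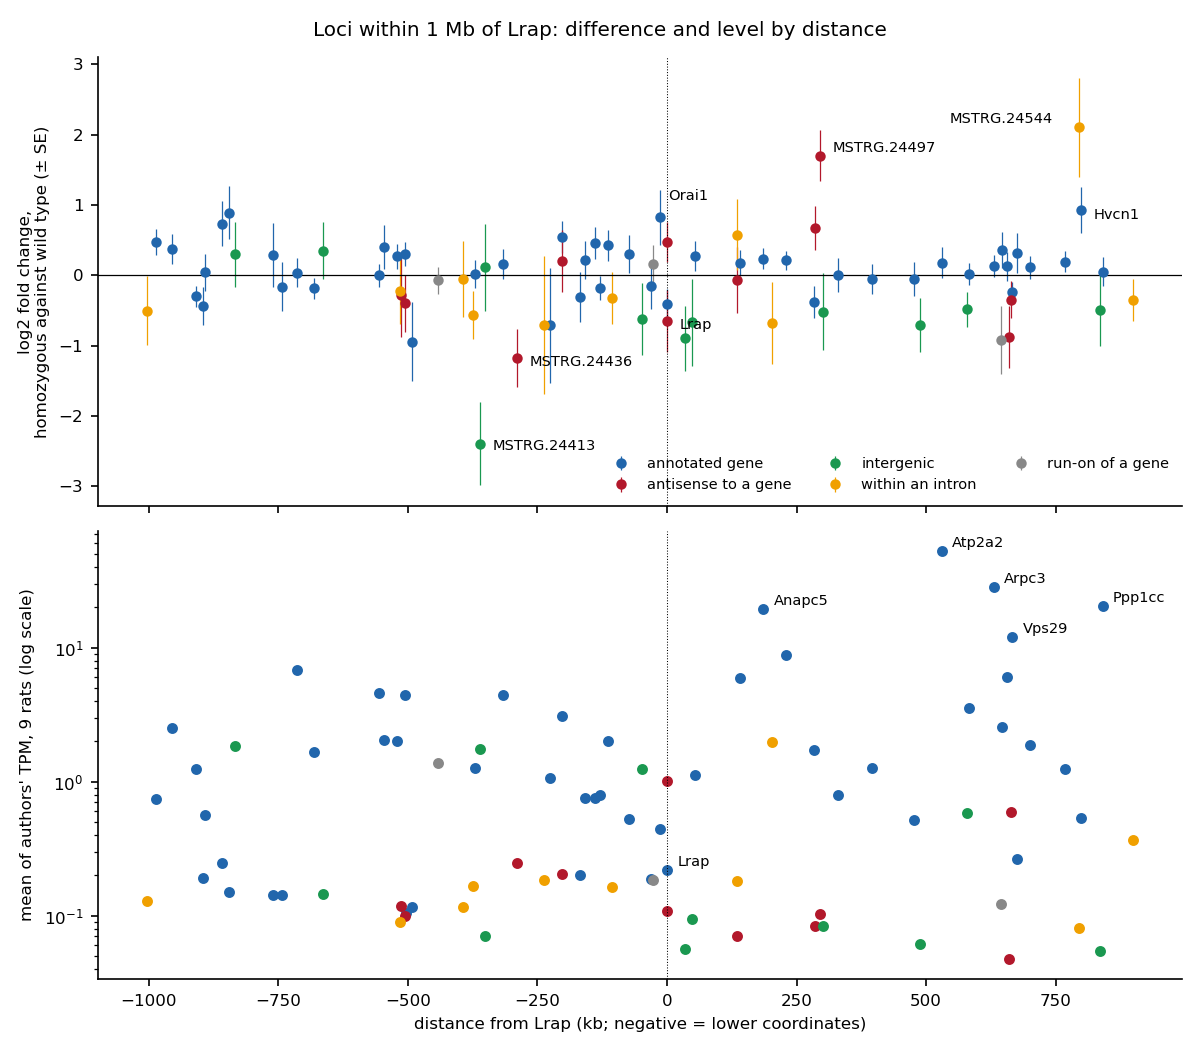
Upper panel: log2 fold change between homozygous and wild-type rats with its standard error for the 83 tested loci, by distance from Lrap in kb, coloured by class. Lower panel: mean of the authors' TPM over 9 rats on a log axis for the 84 loci. The 2 highest log2 fold changes (MSTRG.24544 and MSTRG.24497) and the lowest (MSTRG.24413) are loci without a symbol, and none of the 3 lies within 250 kb of Lrap.

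No locus of the interval passed the test in any genotype comparison. Of the 84, 83 entered the fit over 39057 loci, and B3gnt4 did not. Between homozygous and wild-type rats 0 members passed an adjusted p of 0.05 in edgeR's quasi-likelihood test, where the background was 0% of all loci, and the smallest edgeR adjusted p of a member was 0.544. Between heterozygous and wild-type rats 0 members passed (background 0.00768%), between homozygous and heterozygous rats 0 (background 0.00256%), and in the slope over 0, 1 and 2 deleted alleles 0 (background 0%). DESeq2 and limma-voom also called 0 members in these 4 comparisons. On the authors' TPM, limma called 8 members between homozygous and wild-type rats on log2(TPM + 0.1) (background 9.9%) and 9 on log2(TPM + 1) (background 11.4%), and 17 in the slope on either (background 20.9 and 20.5%). Each of these counts is a share of the members near its background. On that scale the median log2 fold change of all loci itself fell by 0.53 relative to the count scale, and 78 of 83 members were below 0. The 8 that limma called on log2(TPM + 0.1) were all lower in homozygous rats: Lrap, MSTRG.24457 beside it, MSTRG.24449, MSTRG.24413, MSTRG.24512, P2rx4, Vps29 and the leucine-rich repeat gene Lrrc43. The 5 above 0 on that scale were MSTRG.24544 (0.70), MSTRG.24497 (0.47), Hvcn1 (0.14), Orai1 (0.13) and Hcar2 (0.053), and all of them were above 0 on counts too. Values below are on the count scale unless TPM is named.

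At an unadjusted p under 0.05, 8 members were higher in homozygous than in wild-type rats (background 4.88%) and 2 were lower (background 4.25%). The 10 make 12.05% of the members tested, against 9.13% of all loci. The count moved with the rat left out, most of all with wild-type rat 3. Without that rat it was 30 of the members (36.1%), while 26.7% of all loci then stood under the same threshold. Without wild-type rat 2 it was 6 (7.23%, against 4.93% of all loci), and without wild-type rat 1 it was 7 (8.43%, against 6.77%). For heterozygous against wild type 3 members were higher (background 1.37%) and 0 lower (background 2.35%, and 3.73% in either direction), and without wild-type rat 3 there were 14 in all, which was 16.9% of the members and 16.9% of all loci. Between homozygous and heterozygous rats 0 were higher (background 0.512%), and MSTRG.24413 and MSTRG.24524, a locus antisense to Fam216a, were lower (background 1.2%, and 1.71% in either direction). The slope gave 9 members upward (background 5.76%) and 3 downward (background 5.15%), and 28 in all without wild-type rat 3 (33.7%, against 26% of all loci).

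The median log2 fold change between homozygous and wild-type rats was 0.02 over the members and -0.07 over all loci, with 44 members above 0 (background 44.3%) and 39 below. Above 0 were 46 members between heterozygous and wild-type rats (background 45.1%) and 42 between homozygous and heterozygous rats (background 50.7%). It was 0.15 over the 48 tested members with a symbol (34 above 0), where all symbol loci had 0.14, and -0.35 over the 35 without (25 below 0), where all such loci had -0.32. For the rest of chromosome 12 the median was 0.11. It moved to 0.22 over the members without wild-type rat 3.

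The differences had no steady order by distance from Lrap. The median log2 fold change was 0.03 for the 2 loci that overlap, -0.15 for 9 loci within 100 kb, 0.19 for 16 loci at 100 to 250 kb, -0.06 for 17 loci at 250 to 500 kb and 0.05 for the 39 farther out. Across the 83 loci the size of the log2 fold change had a Spearman rho of -0.08 with distance and of -0.49 with mean level, so the loci far from 0 were mostly the scarce ones. These are descriptions across loci that share the same 9 libraries. By strand the median was 0.18 on the plus and -0.07 on the minus strand.

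In genotype order, the means of 26 members (31.3%) were ordered upward from wild type through heterozygous to homozygous, against 24.5% of all loci, and those of 21 (25.3%) downward, against 29.1%. The 3 genotypes did not overlap in a rising order for 1 member, MSTRG.24497 (background 0.174%), and in a falling order for 0 (background 0.118%). By TPM, MSTRG.24413 and Lrap were in falling order without overlap (background 1.19%), and 0 members in rising order (background 0%). Comparing homozygous with wild-type rats alone, all 3 were above in 13 members (background 7.28%) and below in 5 (background 6.09%). All heterozygous rats were above the wild types in 3 members (background 2.69%) and below in 7 (background 3.8%). All homozygous rats were above the heterozygous ones in 8 members (background 4.71%) and below in 6 (background 4.12%).

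The targeted gene came first as a check of the labels. Lrap (MSTRG.24458, minus strand, 39008385 to 39023973) had 2 isoforms, of which MSTRG.24458.2 contains the 618 bases that MSTRG.24458.1 skips. The share of the locus that the authors assigned to MSTRG.24458.2 was 65.6, 58.9 and 56.3% in wild types 1 to 3, 36.8, 42.2 and 42.0% in heterozygotes and 9.89, 21.8 and 18.2% in homozygotes. The genotypes did not overlap, and each library matched its label. Homozygous rats lack the 618 bases, so the share given to MSTRG.24458.2 in them cannot come from reads of those bases. These shares are estimates that divide the reads of the whole locus between 2 isoforms. The difference between homozygous and wild-type rats was -43.6 percentage points (exact permutation p = 0.1, two-sided, the smallest that 3 against 3 can give). MSTRG.24458.2 holds the deleted bases, so a lower share of it in homozygotes follows from the genotype. A usage test of this locus is thus a check of the labels, not a result about splicing. Of 23 members tested for isoform usage between homozygous and wild-type rats, 3 had an unadjusted p under 0.05 (edgeR diffSpliceDGE, background 9.81%). Only Lrap passed (edgeR diffSpliceDGE, adjusted p = 0.00743, background 1.23%). This call was lost under the legacy method (edgeR adjusted p = 0.32), without homozygous rat 1 (0.0625) and without homozygous rat 3 (0.0512).

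At the level of single isoforms, 0 of 135 tested isoforms of the members passed between homozygous and wild-type rats (edgeR, background 0%), and 14 stood at an unadjusted p under 0.05 (background 6.91%). The smallest p belonged to MSTRG.24458.2, with a log2 fold change of -2.64 (SE 0.30, edgeR adjusted p = 0.17). DESeq2 called it with an adjusted p of 1.17e-08, again for an isoform that holds the deleted bases. The second isoform of Lrap, MSTRG.24458.1, had a log2 fold change of 0.26 (SE 0.26). The whole locus was at 5.33, 4.58 and 6.12 CPM in wild types, 4.54, 3.79 and 4.23 CPM in heterozygotes and 4.81, 3.23 and 4.08 CPM in homozygotes. Homozygous and wild-type rats overlapped, heterozygotes lay below the wild types, and the log2 fold change between homozygous and wild-type rats was -0.41 (SE 0.22, edgeR adjusted p = 0.545), or -0.25 without homozygous rat 2 and -0.27 without wild-type rat 3.

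Of 75 tested isoforms in the 23 members with more than 1, the share of 7 was higher in all homozygous than in all wild-type rats (background 6.24%) and that of 6 lower (background 6.82%), in 8 loci. Together these were 17.3% of the member isoforms, against 13.1% of all isoforms. Shares within a locus are not independent, since a rise in 1 isoform is a fall in others. The isoforms of Lrap differ at the deleted bases. The 8 loci were Lrap, Setd1b, Morn3, Camkk2, Ift81, Tctn1, Clip1 and Mlxip. The shares of Setd1b and Morn3, near Lrap, are given here, neither of which passed the usage test. The share of Setd1b (MSTRG.24429) assigned to MSTRG.24429.1, the isoform of longer genomic span but nearly equal exonic length (5413 against 5416 bases), was 56.8, 49.6 and 26.9% in wild types, 54.4, 46.8 and 67.7% in heterozygotes and 58.7, 71.5 and 88.9% in homozygotes. That isoform had a log2 fold change of 1.17 (SE 0.29, edgeR adjusted p = 0.68), and the usage of the locus an edgeR adjusted p of 0.602. For Morn3, a protein of MORN repeats, isoform MSTRG.24448.3 took 37.8, 31.2 and 40.5% in wild types, 54.8, 25.3 and 40.7% in heterozygotes and 83.8, 67.1 and 57.6% in homozygotes (edgeR usage adjusted p = 0.764), an isoform chosen after its values were seen. These Morn3 shares rest on 15 to 46.9 expected counts per library, divided between 3 isoforms. After Lrap, the smallest usage p values among members were those of the ciliary transition-zone gene Tctn1 (edgeR adjusted p = 0.125) and of Ift81, a subunit of the intraflagellar transport machinery (edgeR adjusted p = 0.238).

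**Figure D2:**
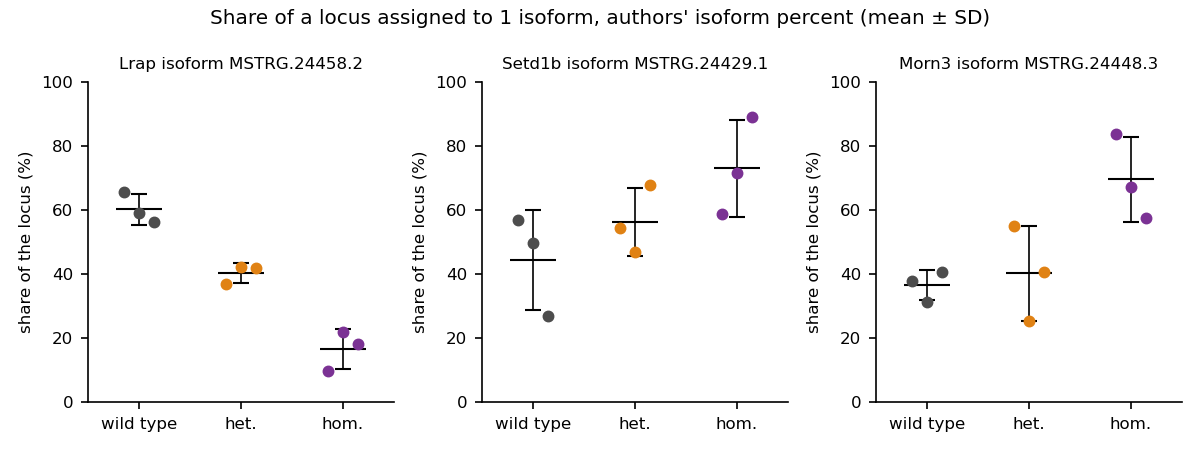
Share of a locus in percent that the authors assigned to 1 isoform of Lrap, Setd1b and Morn3, with 1 point per rat and the mean ± SD of each genotype (n = 3). The estimated share of the Lrap isoform that contains the deleted bases is 56.3 to 65.6% in wild-type rats and 9.89 to 21.8% in homozygotes, which lack those bases. Heterozygous rats overlap the wild types for Setd1b and Morn3. Morn3 had 15 to 46.9 expected counts per library.

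The locus on the opposite strand of Lrap, MSTRG.24459 (plus strand, 39021836 to 39056674), shared 580 of its 1041 exonic bases with exons of Lrap. It measured 0.943, 0.778 and 1.27 CPM (counts relative to the TMM-scaled library size) in wild types 1 to 3, 1.23, 1.13 and 1.36 CPM in heterozygotes and 1.32, 1.17 and 1.68 CPM in homozygotes. The genotypes overlapped, and the log2 fold change of 0.48 (SE 0.29) did not pass (edgeR adjusted p = 0.571). Libraries were stranded per the labels, but the use of strand in counting is not stated in the sources used here, so reads of Lrap and of this locus cannot be told apart in the shared bases.

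The start of MSTRG.24459 lies 26.5 kb from the start of Orai1 in the deposited assembly, and RefSeq places the start of Kdm2b 26.4 kb from that of Orai1 in GRCr8, on the same side and strand, a difference of 0.063 kb. The locus that carries the symbol Kdm2b in the deposited assembly, MSTRG.24475, starts 82.8 kb from Orai1, a difference of 56.3 kb. For the 14 other symbols on that side of Orai1 the spacings in the 2 builds differed by 13.3 to 34.4 kb, and for the 19 on the other side by 0.562 to 23.0 kb, so spacing is a coarse guide. The Kdm2b promoter printed above was not mapped to the build of the counts, and whether the 2 loci are parts of 1 transcript was not tested.

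On the other side of Lrap, MSTRG.24457 (minus strand, 39006791 to 39008299) started 86 bases past the end of Lrap, on the same strand. This locus is classed as antisense to AABR07036336.1. It was at 0.459, 0.317 and 0.350 CPM in wild types, 0.241, 0.201 and 0.183 CPM in heterozygotes and 0.264, 0.326 and 0.125 CPM in homozygotes. All heterozygous rats were below the wild types, homozygous rats overlapped them, and the log2 fold changes were -0.83 (SE 0.43) and -0.65 (SE 0.44).

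Among the annotated genes beside Lrap, Orai1 lies on the minus strand at 38980955 to 38995325, 13.1 kb from Lrap. It was at 1.22, 0.493 and 1.62 CPM in wild types, 1.33, 1.26 and 2.07 CPM in heterozygotes and 2.47, 1.61 and 1.93 CPM in homozygotes. The means were ordered by the number of deleted alleles but the genotypes overlapped, wild-type rat 2 being the lowest. The log2 fold change was 0.83 (SE 0.39, edgeR adjusted p = 0.544) between homozygous and wild-type rats and 0.47 (SE 0.39) between heterozygous and wild-type rats, which share the wild types. Without wild-type rat 2 the first was 0.47. On the authors' TPM the means of Orai1 were nearly level, at 0.440, 0.447 and 0.447 in wild-type, heterozygous and homozygous rats. MSTRG.24451, the run-on locus of Orai1, had means of 1.29, 1.28 and 1.44 CPM. Its log2 fold change between homozygous and wild-type rats was 0.16 (SE 0.27).

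Kdm2b (MSTRG.24475, plus strand, 39078119 to 39161956) was at 7.10, 6.30 and 10.1 CPM in wild types, 7.81, 8.84 and 8.95 CPM in heterozygotes and 10.003, 7.84 and 10.6 CPM in homozygotes, a log2 fold change of 0.27 (SE 0.21), which became 0.41 when homozygous rat 2 was left out, 0.14 without wild-type rat 2 and 0.53 without wild-type rat 3. The larger Setd1b locus, MSTRG.24429 (38850775 to 38868886, minus strand), was at 7.31, 5.06 and 7.57 CPM in wild types, 8.27, 7.71 and 7.56 CPM in heterozygotes and 12.03, 7.83 and 7.67 CPM in homozygotes. The lowest homozygous rat was just above the highest wild type, and the log2 fold change was 0.46 (SE 0.23, edgeR adjusted p = 0.544). It was 0.23 without homozygous rat 1, the highest, and 0.30 without wild-type rat 2. The smaller Setd1b locus, MSTRG.24428, had a log2 fold change of 0.22 (SE 0.28).

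Rhof, a small GTPase that forms filopodia, was at 9.45, 5.14 and 8.99 CPM in wild types, 9.37, 10.1 and 10.02 CPM in heterozygotes and 10.4, 10.7 and 10.5 CPM in homozygotes. Again wild-type rat 2 was the lowest, and the log2 fold change was 0.43 (SE 0.22, edgeR adjusted p = 0.544) and 0.20 without that rat. Tmem120b, a membrane protein of the nuclear envelope, had 2.90 ± 0.887, 3.50 ± 0.621 and 3.59 ± 0.657 CPM in wild-type, heterozygous and homozygous rats (SD, n = 3 each), and Morn3 0.883 ± 0.255, 0.914 ± 0.207 and 0.781 ± 0.104 CPM. Their log2 fold changes were 0.31 (SE 0.27) and -0.15 (SE 0.32), both within the spread between rats, and that of Tmem120b ran from 0.10 without wild-type rat 2 to 0.58 without wild-type rat 3. Wild-type rat 2 was the lowest rat for Orai1, Rhof, Tmem120b, Kdm2b and both Setd1b loci, but not for Morn3. It also had the highest mitochondrial share of counts, 40.4% against 14.8 to 28.1% in the other 8 rats. Its summed markers were the lowest for hypothalamus (0.752 CPM) and neurons (1182 CPM), and the highest for choroid plexus (534 CPM) and blood (362 CPM). The part of this library in these levels was not tested.

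**Figure D3:**
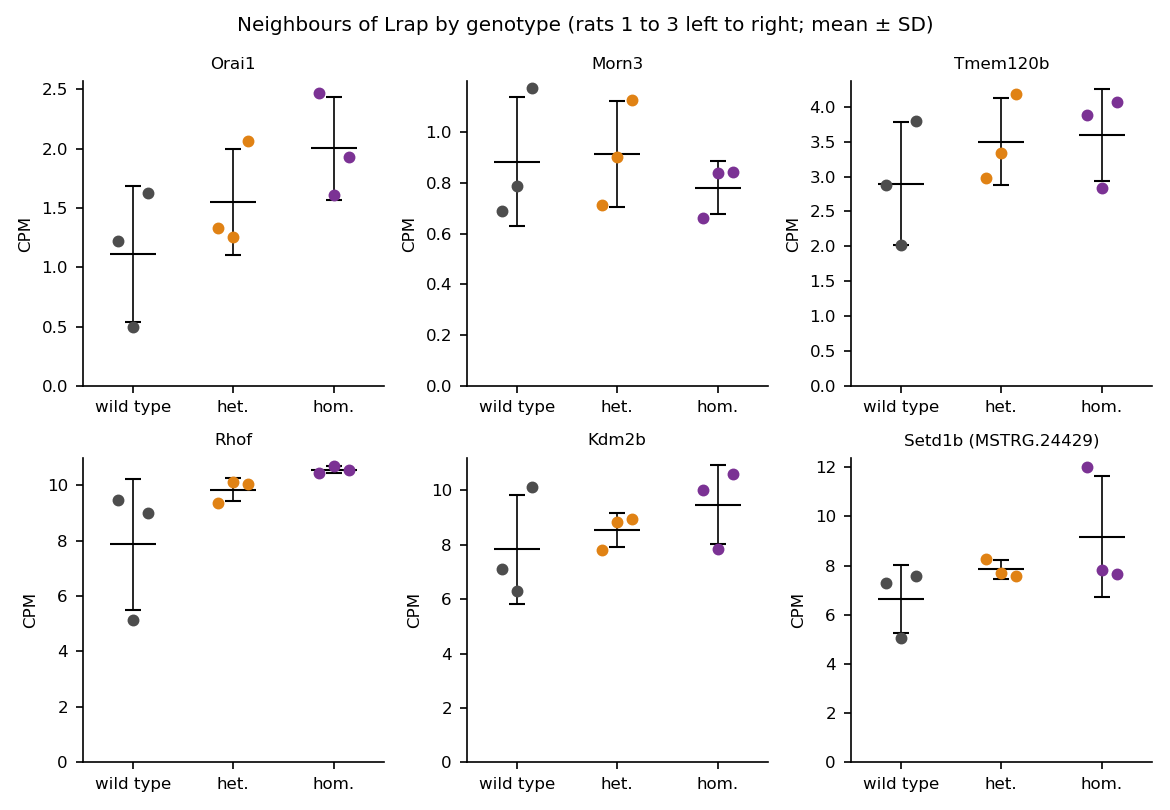
CPM of 6 annotated neighbours of Lrap, with 1 point per rat and the mean ± SD of each genotype (n = 3). Orai1, Rhof, Kdm2b, Setd1b and Tmem120b have their highest mean in homozygous rats on this count scale (on log2(TPM + 0.1) only Orai1 has a log2 fold change above 0), and none of the 6 passed edgeR's test.

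Other genes of the pathways that these neighbours serve, outside the interval, were taken as lists. Of 5 tested genes of store-operated calcium entry other than Orai1, 0 passed between homozygous and wild-type rats in edgeR, with a median log2 fold change of 0.24 and 4 above 0. Stim1, the sensor of the calcium store, had 0.24 (SE 0.17), and the paralog Orai3 -0.20 (SE 0.27). Of 8 Polycomb partners of Kdm2b 0 passed (median 0.015, 5 above 0), with Ring1, an E3 ligase for histone H2A, at 0.50 (SE 0.22). Of 8 tested partners of Setd1b in the COMPASS complex 0 passed (median 0.18, 6 above 0), with its CpG-binding subunit Cxxc1 at 0.54 (SE 0.23). Over all symbol loci the median was 0.14, and 71.4% were above 0. On log2(TPM + 0.1) all genes of the 3 lists were below 0, so that the 4, 5 and 6 above 0 on counts turned with the scale, while the others, Orai3 among them, were below 0 on both.

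The 1 member with rising CPM in genotype order and no overlap lay 295 kb from Lrap, on the strand opposite to P2rx4. MSTRG.24497, a single exon of 2866 bases (plus strand, 39318493 to 39321358), was at 0.306, 0.182 and 0.325 CPM in the 3 wild types. It was at 0.657, 0.503 and 0.680 CPM in heterozygotes and 1.15, 0.792 and 0.777 CPM in homozygotes. On the authors' TPM the mutant genotypes overlapped, at 0.10 to 0.13 TPM in heterozygotes and 0.11 to 0.16 TPM in homozygotes, and wild types were at 0.04 to 0.09 TPM. By CPM the 3 genotypes did not overlap, and the homozygous mean was 334% and the heterozygous mean 227% of the wild-type mean. The log2 fold change was 1.70 (SE 0.36, edgeR adjusted p = 0.544) and 1.16 (SE 0.36, edgeR adjusted p = 0.981), and the slope per deleted allele 0.82 (SE 0.18, edgeR adjusted p = 0.444), the smallest p of the members in each of these comparisons.

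These values rest on few reads, 7 to 34 expected counts per library. The neighbour on the same strand, MSTRG.24496 (39309405 to 39325240), was at 0.821, 0.571 and 0.999 CPM in wild types, 1.18, 1.01 and 1.31 CPM in heterozygotes and 1.498, 0.979 and 1.38 CPM in homozygotes. The heterozygous rats were all above the wild types, homozygous rat 2 was not, and the log2 fold change was 0.67 (SE 0.31, edgeR adjusted p = 0.544). The 2 antisense loci share no exonic base with each other.

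P2rx4 itself (MSTRG.24495, minus strand, 39308025 to 39326161) leaned the other way. It was at 6.17, 5.86 and 8.94 CPM in wild types, 4.47, 4.73 and 6.07 CPM in heterozygotes and 4.58, 5.20 and 6.34 CPM in homozygotes. The ranges overlapped, and the log2 fold change was -0.38 (SE 0.23, edgeR adjusted p = 0.574) and -0.13 without wild-type rat 3, the highest. On log2(TPM + 0.1) limma gave -1.10 (SE 0.34, adjusted p = 0.0463), where all loci had a median of -0.59.

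Set against P2rx4 within each library, a ratio that needs no scaling between libraries, the counts of MSTRG.24497 were 4.96, 3.10 and 3.63% in wild types, 14.7, 10.6 and 11.2% in heterozygotes and 25.0, 15.2 and 12.3% in homozygotes. Every mutant lay above every wild type, and the genotypes with the deletion overlapped each other. For MSTRG.24496 the same share was 13.3, 9.73 and 11.2% in wild types, 26.5, 21.3 and 21.6% in heterozygotes and 32.7, 18.8 and 21.7% in homozygotes. The difference for MSTRG.24497 between homozygous and wild-type rats was 13.6 percentage points (exact permutation p = 0.1, the smallest possible), and 9.36 on the authors' TPM. This ratio was chosen after its parts had been seen.

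Exons of MSTRG.24497 and P2rx4 shared 148 bases, 5.16% of the former and 5.93% of the latter, and those of MSTRG.24496 and P2rx4 793 bases, 11.9% of the former. Reads in those bases cannot be told apart without knowing whether counting used the strand. Both loci also lie wholly within the span of P2rx4, and the libraries were of total RNA. If counting did not use the strand, reads of P2rx4 introns could not be told apart from theirs in the other bases either. The ratio to P2rx4 has the same limit.

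**Figure D4:**
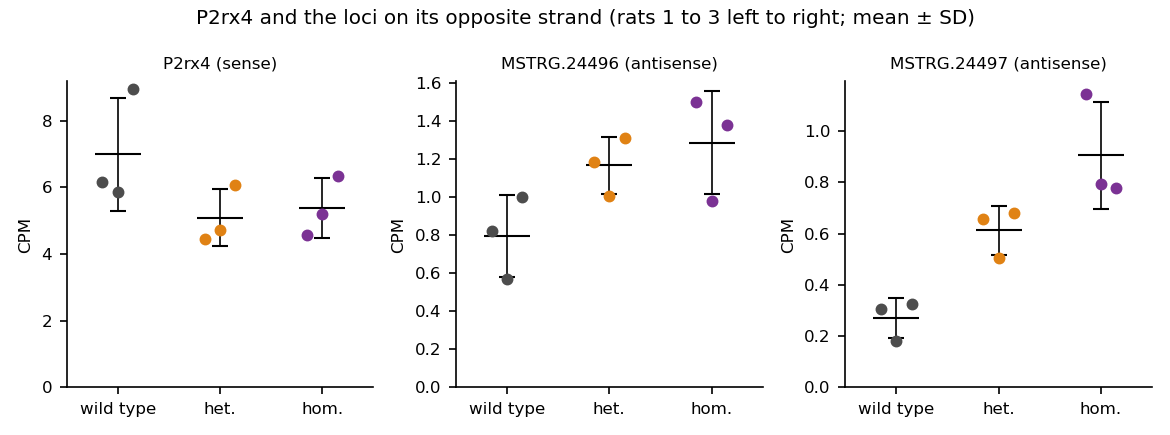
CPM of P2rx4 and of the 2 loci on its opposite strand, with 1 point per rat and the mean ± SD of each genotype (n = 3). MSTRG.24497 is at 0.182 to 0.325 CPM in wild types, 0.503 to 0.680 CPM in heterozygotes and 0.777 to 1.15 CPM in homozygotes, while P2rx4 overlaps between genotypes.

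None of the other genes of calcium and purinergic signalling passed. P2rx7, the neighbour of P2rx4, had 4.94 ± 1.47 CPM in wild types and 4.96 ± 0.422 CPM in homozygotes (SD, n = 3 each). Atp2a2 had 515 ± 183 and 581 ± 85.4 CPM. Camkk2 was at 73.1, 64.4 and 80.3 CPM in wild types and 90.4, 81.0 and 81.5 CPM in homozygotes, which lay just above, with a log2 fold change of 0.22 (SE 0.14, edgeR adjusted p = 0.579), which was 0.14 without wild-type rat 2 and 0.33 without wild-type rat 3. Of the 5 genes of this group 4 had a log2 fold change above 0 on counts and 1, Orai1, on log2(TPM + 0.1).

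Among receptors and channels, Hvcn1, a voltage-gated proton channel of phagocytes, stood at 0.943, 0.467 and 0.724 CPM in wild types, 0.941, 1.57 and 1.18 CPM in heterozygotes and 1.23, 1.33 and 1.48 CPM in homozygotes. By CPM homozygous rats lay above all wild types, with a log2 fold change of 0.92 (SE 0.33, edgeR adjusted p = 0.544). By TPM they overlapped, at 0.45 to 0.54 TPM against 0.29 to 0.59 TPM in wild types. Hcar2, a receptor for nicotinic acid and ketone bodies, was at 0.255, 0.363 and 0.450 CPM in wild types, 0.744, 0.966 and 0.497 CPM in heterozygotes and 0.529, 0.723 and 0.702 CPM in homozygotes. Both mutant genotypes were above wild type without overlap in CPM. The log2 fold changes were 0.89 (SE 0.38) in homozygotes and 1.05 (SE 0.37) in heterozygotes, neither of which passed (edgeR adjusted p = 0.544 and 0.981). In TPM the genotypes overlapped, at 0.08 to 0.16 TPM in wild types, 0.10 to 0.34 TPM in heterozygotes and 0.10 to 0.15 TPM in homozygotes. In wild types Hcar2 had 10 to 18 expected counts. Its neighbour Hcar1 had a log2 fold change of 0.73 (SE 0.32, edgeR adjusted p = 0.544) and overlapped between genotypes.

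P2rx4, Hvcn1 and Hcar2 are known from microglia among other cells, but they did not lean the same way. Between homozygous and wild-type rats their log2 fold changes were -0.38, 0.92 and 0.89, and that of P2rx7 was 0.0053. The summed level of 4 microglial markers (Cx3cr1, P2ry12, Tmem119 and C1qa, none at 0) was 24.8 to 35.7 CPM in wild types, 30.6 to 40.04 CPM in heterozygotes and 37.6 to 43.7 CPM in homozygotes. P2ry12 alone overlapped between wild-type (4.87 to 8.34 CPM) and homozygous rats (5.15 to 8.05 CPM), and the other markers did not. The part of microglia in the values of P2rx4, P2rx7, Hvcn1 and Hcar2 was not tested. In whole brain, a change in the number of cells of a type and a change in RNA per cell cannot be told apart.

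Genes of ubiquitin, the proteasome and cell death all had a log2 fold change above 0 on counts (5 of 5, median 0.24, 0 passed), where 71.4% of all symbol loci were above 0 with a median of 0.14, and all 5 were below 0 on log2(TPM + 0.1). Psmd9, an assembly chaperone of the proteasome, was at 6.32, 5.31 and 9.41 CPM in wild types, 7.31, 8.62 and 9.90 CPM in heterozygotes and 11.3, 9.86 and 9.53 CPM in homozygotes. Homozygous rats were all above the wild types, wild-type rat 3 being close, and the log2 fold change was 0.54 (SE 0.23, edgeR adjusted p = 0.544) and 0.84 without that rat. Diablo, a mitochondrial protein that frees caspases, had 0.31 (SE 0.17), Anapc5 0.24 (SE 0.15), the E3 ligase Rnf34 0.17 (SE 0.19) and Anapc7 0.02 (SE 0.15).

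Of 13 loci of the cytoskeleton, cilia and vesicle traffic 8 were above 0 on counts and 0 passed (median 0.13), and all 13 were below 0 on log2(TPM + 0.1). The list does not hold Tctn1, with a log2 fold change of 0.19 (SE 0.15), the 2 loci of Ift81 (-0.055 and -0.055) or Vps29 (-0.24). Vps37b, a subunit of the ESCRT-I sorting complex, was at 9.34, 8.03 and 7.30 CPM in wild types, 8.16, 10.1 and 11.1 CPM in heterozygotes and 12.1, 11.8 and 10.4 CPM in homozygotes. The homozygous rats lay above the wild types, with a log2 fold change of 0.48 (SE 0.18, edgeR adjusted p = 0.544). Ccdc62 leaned downward at 14.2, 15.8 and 15.8 CPM in wild types, 13.0, 12.1 and 12.6 CPM in heterozygotes and 12.6, 11.7 and 12.8 CPM in homozygotes. Both mutant genotypes lay below all wild types, and the log2 fold change was -0.30 (SE 0.15, edgeR adjusted p = 0.544).

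Wdr66, a protein of motile cilia and sperm tails, was set by 1 library. It was at 2.55, 3.11 and 22.8 CPM in wild types 1 to 3, 5.67, 6.64 and 8.56 CPM in heterozygotes and 7.84, 2.24 and 7.42 CPM in homozygotes. Its log2 fold change was -0.71 (SE 0.82), and 1.07 without wild-type rat 3. The locus within its intron, MSTRG.24441, had the same outlying library at 5.33 CPM, where the other 8 rats had 0.258 to 1.81 CPM. The summed level of 6 cerebellar markers was 23.1, 19.4 and 301 CPM in wild-type rats 1 to 3. It was 79.2, 97.0 and 139.5 CPM in heterozygotes 1 to 3 and 253, 21.4 and 193 CPM in homozygotes 1 to 3. The 3 rats lowest in this sum, wild-type rats 1 and 2 and homozygous rat 2, were the 3 lowest for Wdr66, and wild-type rat 3 was the highest for both. The part of tissue make-up in the Wdr66 level was not tested.

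The 3 remaining loci of small unadjusted p carry no symbol and few reads. MSTRG.24413, an intergenic stretch of 248 bases 361 kb from Lrap (plus strand, 38647010 to 38647257), was at 0.409, 0.856 and 0.275 CPM in wild types, 0.350, 0.161 and 0.312 CPM in heterozygotes and 0.0881, 0.0699 and 0.125 CPM in homozygotes. Homozygous rats lay below all others, with 2 to 5 expected counts each, and the log2 fold change was -2.39 (SE 0.59, edgeR adjusted p = 0.544). On the authors' TPM limma called it (adjusted p = 0.000449).

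MSTRG.24436, antisense to Wdr66, was at 0.484, 0.778 and 0.599 CPM in wild types, 0.591, 0.242 and 0.393 CPM in heterozygotes and 0.220, 0.280 and 0.301 CPM in homozygotes. Homozygous rats were below all wild types, and the log2 fold change was -1.18 (SE 0.42, edgeR adjusted p = 0.544). MSTRG.24544, in an intron of Tctn1 on the opposite strand, was at 0.280, 0.0259 and 0.025 CPM in wild types, 0.0657, 0.302 and 0.183 CPM in heterozygotes and 0.397, 0.583 and 0.451 CPM in homozygotes. Wild-type rats 2 and 3 had 1 expected count each, and the log2 fold change was 2.11 (SE 0.70, edgeR adjusted p = 0.544). Without wild-type rat 1 it was 4.09, which rests on 1 count in each of the other wild types.

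**Figure D5:**
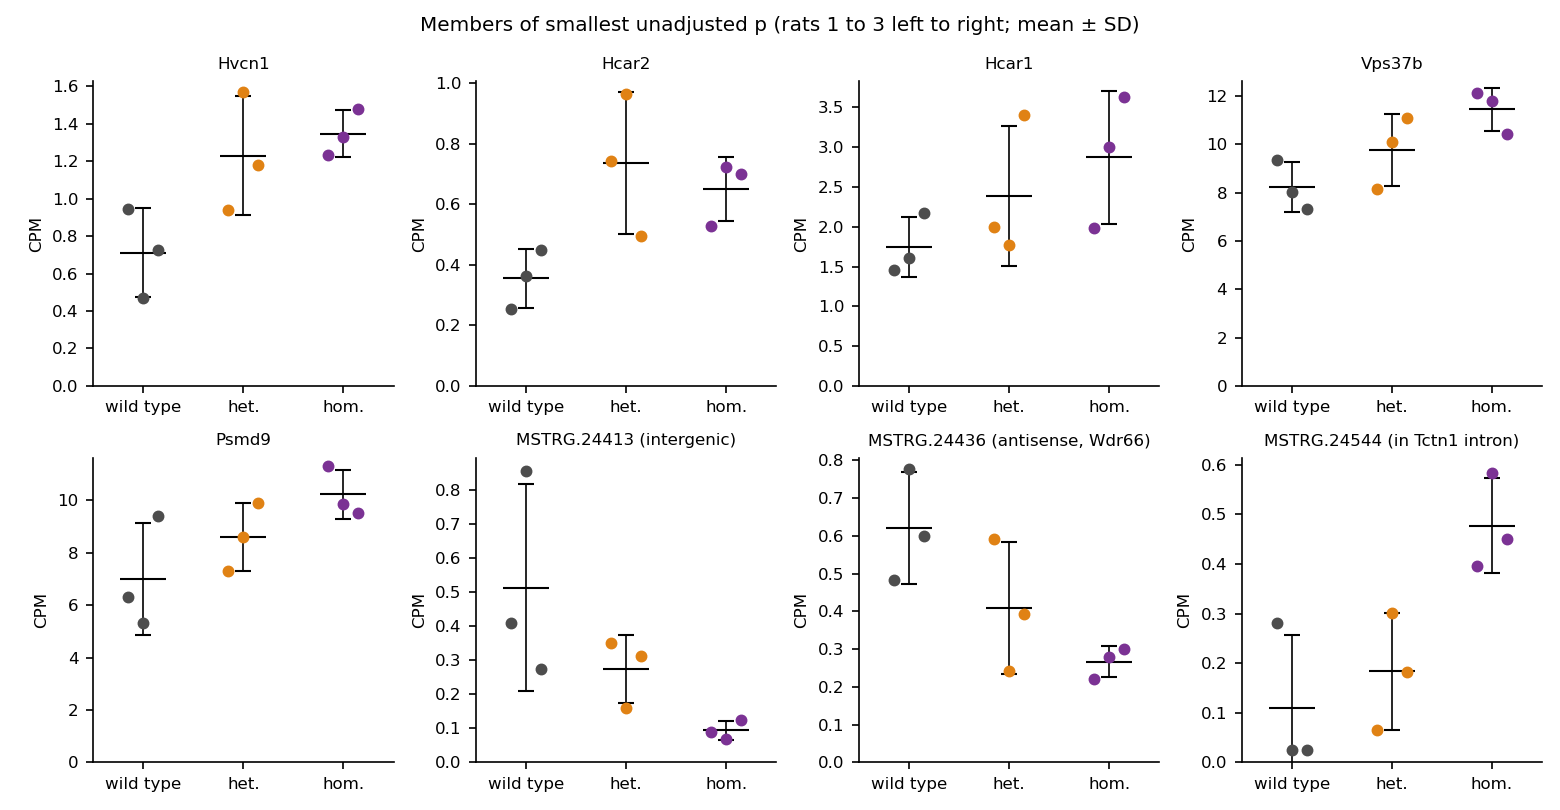
CPM of 8 members of small unadjusted p, with 1 point per rat and the mean ± SD of each genotype (n = 3). Homozygous rats lie above all wild types for Hvcn1, Hcar2, Vps37b, Psmd9 and MSTRG.24544 and below them for MSTRG.24413 and MSTRG.24436, and none passed edgeR's adjusted threshold. On the authors' TPM they lie above all wild types for none of these loci, and below them for Vps37b, MSTRG.24413 and MSTRG.24436.

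Members that start back to back could be compared within a pair. Gpn3, a GTPase for the assembly of RNA polymerase II, and Fam216a start 177 bases apart on opposite strands and had a Spearman rho of 0.77 over the 9 libraries. Vps29 and Rad9b, a checkpoint clamp paralog, start 67 bases apart and had a rho of -0.17, and Setd1b and AABR07036331.2, 1373 bases apart, a rho of -0.40. The libraries of a pair share depth and scaling, and no test was made.

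Library totals ran from 27489383 to 46975919 expected counts, and the members took 0.106 to 0.186% of them, most in wild-type rat 3. The common biological coefficient of variation over all loci was 0.277. No molecular identifiers were used, so reads are not independent molecules. The p-values of the fits set a difference against an estimate of the spread between these rats.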

How the data were processed

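Expression was measured as RNA-seq of ribosome-depleted total RNA from whole brain, with stranded libraries per the labels' protocols. The authors deposited RSEM expected counts and TPM per locus and isoform, and the percent of a locus assigned to each isoform, on a StringTie assembly (cutadapt, HISAT2, StringTie and RSEM on rn6, per the submitters' processing notes; the sources used here give no versions). Deposited expected counts are estimated counts that need not be whole, and TPM is scaled by length and library.

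Counts were rounded, filtered with filterByExpr and fitted over all 9 libraries with edgeR 4.0.16 (R 4.3.3), as robust quasi-likelihood with TMM factors of 0.813 to 1.18, and usage with diffSpliceDGE. Adjusted p-values are Benjamini-Hochberg over all 39057 loci, 63699 isoforms or 9659 loci, with a threshold of 0.05. CPM are TMM-scaled. Alternatives used DESeq2 1.42.0, limma 3.58.1, log2(TPM + 0.1) and log2(TPM + 1), and leaving out each rat. Spike-in loci (99) stayed out. The gene, isoform and usage fits for homozygous against wild-type rats and the gene slope were tested on simulated data. Those data had 1 common coefficient of variation and no outlying library, unlike the real data. The recovered shares therefore hold for the simulated data and do not show what was recovered in these rats. Between homozygous and wild-type rats, 10.4% of 2-fold and 80.6% of 4-fold locus changes were recovered. For isoforms the shares were 0 and 10.4%, and the usage fit recovered 9.65% of the loci with a changed isoform. With 3 rats a genotype most 2-fold changes, and most 4-fold changes of isoforms, can thus be missed. A count of 0 therefore does not show that members did not differ. Shares of isoforms were compared with exact permutation tests. Gene names came from the deposited assembly and promoters from RefSeq.

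The members, lists and the rule for named loci (Lrap and loci near it, the smallest p values, the highest TPM and the role lists) were chosen with earlier results of these data known. Only some of the loci the rule names are described with values.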

Additional observations from a re-analysis of the deposited data

How the results depend on the processing

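No member passed between homozygous and wild-type rats, heterozygous and wild-type rats or homozygous and heterozygous rats, or in the slope, under any count alternative or with any rat left out. On log2(TPM + 0.1) and log2(TPM + 1), limma called 8 and 9 members between homozygous and wild-type rats (9.9 and 11.4% of all loci) and 17 and 17 in the slope (20.9 and 20.5%), where the median of all loci shifted by -0.53 and -0.16. Member isoforms called were 2 with DESeq2 (0.544% of all isoforms) and 2 on log2(TPM + 0.1) (0.0424%), and loci called for usage were 2 with no filter on low counts (1.06% of all loci), 0 with the legacy method (1.28%) and 0 to 3 with 1 rat left out (0 without homozygous rat 1, where 0.726% of all loci were called, and 3 without wild-type rat 3, with 1.99%). The share of Lrap differed by -46.2 to -40.3 percentage points with 1 rat left out. Graded members without overlap were 2 by TPM. The median over members was 0.16 within 250 kb of Lrap and -0.03 to 0.22 with 1 rat left out.

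Signs turned mostly by unit, and the cause was not tested. On log2(TPM + 0.1) the log2 fold change was -0.30 for MSTRG.24459, -0.40 for Tmem120b, -0.30 for Rhof, -0.46 for Kdm2b, -0.46 for Setd1b MSTRG.24428, -0.28 for Setd1b MSTRG.24429, -0.048 for MSTRG.24496, -0.65 for P2rx7, -0.57 for Camkk2, -0.52 for Atp2a2, -0.058 for Hcar1, -0.27 for Vps37b, -0.20 for Psmd9, -0.54 for Anapc5, -0.66 for Anapc7, -0.58 for Rnf34, -0.46 for Diablo. On log2(TPM + 1) it was -0.17 for MSTRG.24459, -0.17 for Tmem120b, -0.22 for Rhof, -0.27 for Kdm2b, -0.23 for Setd1b MSTRG.24428, -0.14 for Setd1b MSTRG.24429, -0.0087 for MSTRG.24496, -0.32 for P2rx7, -0.51 for Camkk2, -0.52 for Atp2a2, -0.015 for Hcar1, -0.13 for Vps37b, -0.16 for Psmd9, -0.52 for Anapc5, -0.53 for Anapc7, -0.51 for Rnf34, -0.39 for Diablo. Without wild-type rat 3 it was 0.15 for Morn3 and 1.07 for Wdr66 (lowest -1.18, without wild-type rat 1), and without wild-type rat 2 it was -0.035 for Setd1b MSTRG.24428, -0.22 for P2rx7, -0.033 for Atp2a2 and -0.098 for Anapc7. Without wild-type rat 3 the last 2 were highest, at 0.52 and 0.12. P2rx7 also turned without homozygous rat 1 (-0.057) and with the compared genotypes alone (-0.0013).

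The main fits did not assume that rat numbers pair the samples, and these values do not settle it. Same-numbered rats of different genotypes had deviations correlated at -0.18 to 0.40 (9 pairs), and differently numbered rats at -0.51 to 0.39 (18 pairs). With the number as a replicate block, 0 members passed in each of the 4 comparisons and 1 in usage (Lrap, edgeR adjusted p = 0.0128). At an unadjusted edgeR p under 0.05 that block gave 14 members between homozygous and wild-type rats (16.9%, against 12% of all loci). Depth limits the scarce loci most, with 7 to 34 counts for MSTRG.24497 and 2 to 33 for MSTRG.24413.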
